A study of Mus musculus with 13 samples.

Results

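The 3 libraries of P-restricted haematopoietic stem cells (PLT-HSC) were compared with the 6 libraries of PEM-restricted haematopoietic stem cells (PEM-HSC), 9 of the 13 libraries of the study, over all genes. Single stem cells that expressed Vwf had been transplanted into mice, the blood made by each cell was followed over 16 weeks, and recipients were grouped by the lineages the cell replenished. In the usual notation for such recipients, P stands for platelets and PEM for platelets, erythrocytes and myeloid cells. Both groups, and the 4 multilineage MUL-HSC libraries used to estimate the spread and for reference, came from recipients' bone marrow and the strain C57BL/6. In all groups the cells were donor-derived (CD45.2+) and carried the stem cell phenotype LSK Flt3- CD150+ CD48-, without Gata1, with 100 cells in each library. Every group therefore descended from a Vwf+ cell and had been selected against Gata1, so neither gene is an untouched readout. The labels do not give the ages or say which libraries come from separate recipients, so every p-value rests on the spread among the libraries at hand, and part of that spread may be technical. The comparison asks how stem cells that replenish platelets alone differ in RNA from those that also replenish red and myeloid cells.

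Haematopoietic stem cells are largely quiescent cells of the marrow that self-renew and give rise to all blood lineages. A part of the compartment carries transcripts of the megakaryocyte lineage, whose cells shed platelets, and these platelet-biased stem cells share thrombopoietin signalling with megakaryocytes. Their transcriptome changes with age and with each entry into the cell cycle, and both are usual sources of variation among stem cell samples.

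Values are given in CPM, the reads of a gene scaled to a library of 1000000 gene reads, and differences as log2 fold changes of PLT-HSC minus PEM-HSC from edgeR with a standard error (SE) or a 95% interval. Gene totals were 29017378 to 32437607 reads in PLT-HSC and 22913695 to 28013676 in PEM-HSC, so that each PLT-HSC library was deeper than each PEM-HSC library (exact permutation p = 0.0238, 0.0952 after adjustment over 4 library measures, the smallest possible p being 0.0119). The number of detected genes overlapped, at 11914 to 12310 in PLT-HSC and 11676 to 12236 in PEM-HSC (exact permutation p = 0.381). PLT-HSC libraries resembled each other no more than they resembled PEM-HSC libraries: Pearson's r of log2(CPM + 1) across genes was 0.831 to 0.867 for the 3 pairs within PLT-HSC, 0.855 to 0.889 for the 15 pairs within PEM-HSC and 0.841 to 0.879 for the 18 pairs between them.

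Transcripts of the sort markers Kit, Ly6a and Slamf1 were present in every PLT-HSC and PEM-HSC library, while those of the excluded genes were not absent throughout. Replicates 1, 2 and 3 of PLT-HSC held 417, 187 and 647 CPM of Kit, the receptor for stem cell factor, and PEM-HSC ranged from 204 to 463 (median 353) CPM. For Ly6a (Sca-1) the values were 834, 1434 and 245 CPM in PLT-HSC against 552 to 919 (median 726) CPM in PEM-HSC. For Slamf1 (CD150) they were 246, 326 and 133 CPM in PLT-HSC against 109 to 295 (median 199.6) CPM in PEM-HSC. For these 3 markers the PEM-HSC values lay inside the range of the PLT-HSC values or overlapped it, and PLT-HSC replicate 3 was the lowest of its group for Ly6a and Slamf1 and the highest for Kit. Flt3, excluded in the sort, was at 0, 0 and 0.0308 CPM in PLT-HSC and reached up to 5.34 CPM in PEM-HSC. Cd48, also excluded, was at 10.99, 6.47 and 0 CPM in PLT-HSC and was detected in 1 of 6 PEM-HSC libraries, at 15.9 CPM. Gata1, the excluded erythroid and megakaryocyte factor, was at 0.276, 0 and 24.9 CPM in PLT-HSC against 0.750 to 22.4 (median 5.46) CPM in PEM-HSC, with the highest value again in PLT-HSC replicate 3.

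No gene passed the test between the groups. Of 12536 genes tested, 0 (0%) had an adjusted p under 0.05 with edgeR, and the lowest adjusted p was 0.876. At an unadjusted p under 0.05 there were 467 genes (3.73%), 198 higher (1.58%) and 269 lower (2.15%) in PLT-HSC. With other tools, limma voom called 1 gene and DESeq2 called 115. Of these 115, 75 had no read in any PLT-HSC library and 9 none in any PEM-HSC library. A gene is more easily without reads in all 3 PLT-HSC than in all 6 PEM-HSC libraries, and the part of group size in this split was not tested. Of the genes in the lists described below, DESeq2 called Blnk, Bmpr1a, Cpa3, Epb4.2, Hoxc6, Itgam, Lat and Vcam1. That no gene passed does not show that the groups are alike: of 8738 genes with a mean of at least 10 CPM, 3313 (37.9%) had a 95% interval that lay within a 2-fold difference either way. For the rest the interval reached beyond 2-fold in at least 1 direction. The genes described below are therefore given as values, and none is called changed.

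Read against that background, individual genes separated the groups at shares near those of random labels. In 138 genes (1.1%) all 3 PLT-HSC libraries lay above all 6 PEM-HSC libraries, and in 133 genes (1.06%) all lay below. With 84 possible splits of 3 and 6 libraries, random labels would separate a share of at most 0.0119 in each direction. The genes with the lowest p among these, 10 in each direction with a mean of at least 5 CPM, are described here for that reason, so their separation is a matter of selection. Rsrp1, which encodes an arginine- and serine-rich protein, headed the list. It stood at 946, 1414 and 1156 CPM in the 3 PLT-HSC libraries against 442 to 668 (median 558) CPM in PEM-HSC, a log2 fold change of 1.09 (SE 0.21, 95% interval 0.65 to 1.52). The lowest PLT-HSC library was well clear of the highest PEM-HSC library.

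Smg1, a kinase of nonsense-mediated RNA decay, was at 110.4, 102 and 135 CPM against 27.1 to 79.1 (median 35.3) CPM, a log2 fold change of 1.44 (SE 0.35, 95% interval 0.71 to 2.18). Swt1, an endoribonuclease of nuclear RNA quality control, was at 107, 112 and 102 CPM against 51.9 to 71.6 (median 53.4) CPM, a difference of 0.89 (95% interval 0.42 to 1.35). Aff4, the scaffold of the super elongation complex of RNA polymerase II, was at 64.3, 72.3 and 108 CPM against 13.4 to 46.4 (median 25.5) CPM, a difference of 1.54 (95% interval 0.69 to 2.38). In all 3 genes each PLT-HSC library was clear of the PEM-HSC range. Itch, a ubiquitin ligase, was at 87.4, 74.6 and 140.1 CPM against 34.2 to 65.3 (median 39.5) CPM, and Vcpip1, a deubiquitinase that works with the ATPase VCP, was at 61.4, 25.1 and 46.4 CPM against 11.1 to 23.9 (median 14.5) CPM. Replicate 3 was the highest PLT-HSC library for Itch, and replicate 1 for Vcpip1. Igfbp4, a secreted binder of insulin-like growth factors, stood at 129, 109 and 151 CPM against 58.4 to 89.5 (median 68.1) CPM, and the MUL-HSC libraries, at 93.9 to 149 CPM, overlapped PLT-HSC there. The remaining members were Gprasp1, a sorting protein of G protein-coupled receptors, with a log2 fold change of 1.01, D6Wsu163e with 1.23, and Phf20l1, a reader of methylated lysines, with 0.87.

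**Figure D1:**
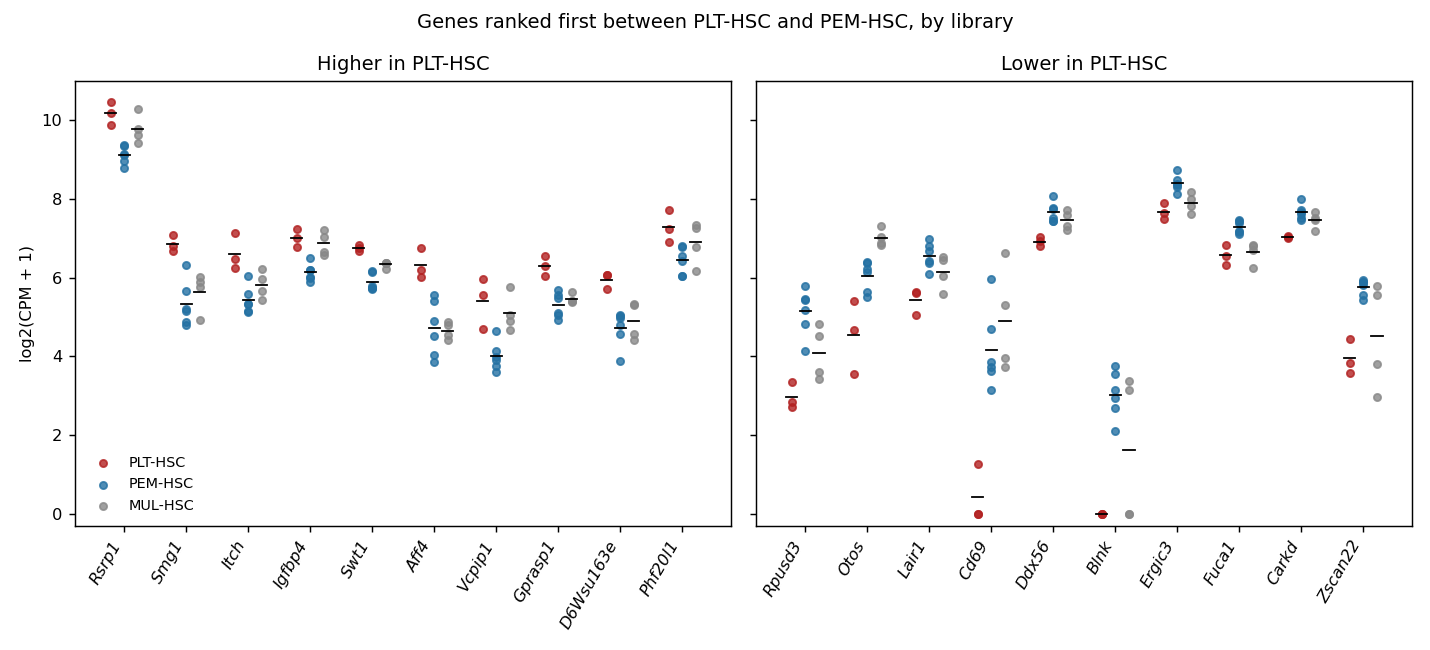
Expression of the 20 genes ranked first between PLT-HSC and PEM-HSC, as log2(CPM + 1) for each library, with 3 PLT-HSC (red), 6 PEM-HSC (blue) and 4 MUL-HSC (grey) libraries and a bar at each group mean. The red and blue points do not overlap because the genes were selected for that. Cd69 and Blnk lie at or near 0 in PLT-HSC.

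In the lower direction, Cd69, an early activation antigen of lymphocytes that also retains cells in tissue, was at 0, 0 and 1.42 CPM in PLT-HSC against 7.92 to 61.8 (median 12.9) CPM in PEM-HSC, a log2 fold change of -5.62 (SE 1.47, 95% interval -8.73 to -2.51). Only PLT-HSC replicate 3 held Cd69 reads, and all 6 PEM-HSC libraries held more. Blnk, the adaptor of the B cell receptor, had no read in any PLT-HSC library and 3.28 to 12.6 (median 7.24) CPM in PEM-HSC. Its mean in PEM-HSC was 235 times a floor of 3 counts over the 3 PLT-HSC libraries. That ratio reflects sequencing depth and is no lower bound on the difference. The fitted log2 fold change was -10.7 (95% interval -17.09 to -4.32). Lair1, an inhibitory collagen receptor of leukocytes, was at 47.8, 32.4 and 48.7 CPM against 67.1 to 125 (median 93.1) CPM, a difference of -1.15 (95% interval -1.76 to -0.53). For these genes the groups separated fully, but Blnk and Cd69 are genes of low level here.

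Rpusd3, a pseudouridine synthase of mitochondrial RNA, was at 9.13, 6.13 and 5.61 CPM against 16.8 to 54.7 (median 38.9) CPM, a log2 fold change of -2.38 (SE 0.57, 95% interval -3.58 to -1.18). Otos, which encodes otospiralin, was at 24.7, 10.7 and 41.6 CPM against 44.3 to 83.3 (median 72.3) CPM, while MUL-HSC stood higher still at 129.6 ± 19.9 CPM (SD, n = 4). Ergic3, which moves cargo between endoplasmic reticulum and Golgi, was at 198, 237 and 179 CPM against 279 to 426 (median 330.4) CPM. Carkd, a repair enzyme of hydrated NADH and NADPH, was nearly constant within PLT-HSC at 132, 127 and 131 CPM, below all of PEM-HSC at 175 to 256 (median 198) CPM. The nucleolar helicase gene Ddx56 (-0.75, 95% interval -1.17 to -0.33), the lysosomal fucosidase gene Fuca1 (-0.71, 95% interval -1.15 to -0.28) and the zinc finger gene Zscan22 (-1.84, 95% interval -3.03 to -0.66) completed the 10. Of the 20 genes in both directions, 16 were also called by DESeq2, and all 20 kept non-overlapping libraries when library sizes were scaled by TMM.

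A few genes were detected on one side only. Reads in all 3 PLT-HSC and none of the 6 PEM-HSC libraries were found for 8 genes, and the reverse for 4, against 9455 genes detected in all 9 libraries. Fcer2a, which encodes the low-affinity IgE receptor CD23, was at 20.8, 7.15 and 7.21 CPM in PLT-HSC but at 0 in all of PEM-HSC. It was the 1 gene that limma voom called (adjusted p = 0.0414). Bcl6b, a transcriptional repressor, was at 5.82, 8.20 and 0.462 CPM and at 0 in all PEM-HSC and MUL-HSC libraries. P2ry12, the ADP receptor of platelets and microglia, was at 2.55, 0.305 and 0.586 CPM in PLT-HSC but at 0 in PEM-HSC. The other 5, Chmp4c, Kcnrg, BC018242, Mir466i and Apoa2, stayed under 5 CPM in every library. In the opposite direction Blnk was joined by Edar, the ectodysplasin receptor gene, 1600023N17Rik and Tepp. Levels this low rest on few molecules in 100 cells, and the deeper sequencing of PLT-HSC moves with the direction that had more such genes. The rules are also unequal, since reads were required in 3 libraries for one direction and in 6 for the other. The counts of 8 and 4 are therefore not directly comparable. The part of depth and of the group sizes in these counts was not tested.

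Megakaryocyte and platelet genes were spread to both sides. Of 49 tested members, 31 had a positive fold change (63.3%, against 51.5% of all tested genes), and their median was 0.18 against 0.02 for all genes. The median was 0.08 with 27 positive without PLT-HSC replicate 3, 0.09 without PEM-HSC replicate 5 and 0.01 with the mean level of the mitosis genes as a covariate. None was called by edgeR, and DESeq2 called Lat alone. The 10 granule genes had a median of 0.86 with 8 positive, the 19 surface receptors a median of 0.03 with 10 positive. Vwf, which encodes a granule protein of platelets and selected the transplanted cells, stood at 105, 104 and 200.01 CPM in PLT-HSC against 32.4 to 113 (median 81.3) CPM in PEM-HSC, a log2 fold change of 0.78 (SE 0.39, 95% interval -0.04 to 1.59). PLT-HSC replicates 1 and 2 lay inside the PEM-HSC range and replicate 3 above it. Pf4, platelet factor 4, leaned the other way at 40.6, 22.1 and 59.1 CPM against 41.7 to 88.5 (median 58.6) CPM, and Itga2b, the platelet integrin CD41, was at 1.34, 0 and 15.7 CPM against 1.25 to 25.4 (median 5.82) CPM. For both the groups overlapped.

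The transcription factors and receptors of the lineage gave a mixed picture. Mef2c, a factor of megakaryocytic and lymphoid cells, was at 435, 341 and 368 CPM in PLT-HSC, above each PEM-HSC library at 171 to 312 (median 253) CPM, with a log2 fold change of 0.64 (SE 0.21, 95% interval 0.20 to 1.08). Nfe2, the factor that drives platelet release, was at 821, 939 and 960.1 CPM, below each PEM-HSC library at 1071 to 1388 (median 1119.9) CPM, with a log2 fold change of -0.37 (SE 0.17, 95% interval -0.73 to -0.01). Mef2c and Nfe2 thus separated the groups in opposite directions. Fli1, an ETS factor of megakaryocytes, differed by 0.42 (95% interval -0.10 to 0.93), Runx1 by 0.59 (95% interval -0.09 to 1.28) and Tal1 by 0.59 (95% interval -0.25 to 1.42). Lat, an adaptor downstream of the collagen receptor of platelets and of the T cell receptor, was at 46.5, 20.1 and 75.3 CPM against 65.4 to 128 (median 106) CPM (-1.15, 95% interval -1.82 to -0.49), with PLT-HSC replicate 3 inside the PEM-HSC range and an adjusted p of 0.0463 with DESeq2. Mylk, the myosin light chain kinase, was at 62.1, 61.9 and 81.6 CPM, above each PEM-HSC library at 26.7 to 59.8 (median 45.1) CPM. With P2ry12 and Mef2c it made up the 3 of 49 members (6.12%) above in all libraries, beside 1.1% of all genes, and Nfe2 was the 1 member below (2.04%, beside 1.06%).

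Erythroid genes, whose lineage PEM-HSC replenish and PLT-HSC do not, were balanced as a whole list. By role, 4 of 6 receptor and membrane genes, 4 of 5 enzyme and other genes, 3 of 7 haem and haemoglobin genes and 1 of 5 transcription factors were positive. The mean log2(CPM + 1) of the list relative to the 9 libraries was -0.13, -0.27 and 0.58 in PLT-HSC. In PEM-HSC it was -0.25 to 0.16, so that PLT-HSC held both the lowest and the highest library. Of all 23 tested members 12 were positive (52.2%), with a median of 0.01 that turned negative in 9 of 25 alternative settings, and no member separated the groups. Klf1, the master factor of red cell genes, had no read in PLT-HSC and was detected in 3 of 6 PEM-HSC libraries, at up to 7.67 CPM. Epor, the erythropoietin receptor, was at 18.7, 7.32 and 23.1 CPM in PLT-HSC against 2.16 to 58.4 (median 22.5) CPM in PEM-HSC, and the range of PEM-HSC covered all of PLT-HSC. Car2, a carbonic anhydrase abundant in stem cells and red cell precursors, was at 8183, 7978 and 5259.5 CPM against 5537 to 7574 (median 6439.6) CPM. The haem synthesis genes Alad (-0.46, 95% interval -0.96 to 0.04) and Fech (0.18, 95% interval -0.60 to 0.96) had intervals that include zero. All 6 haemoglobin genes examined, Hba-a1, Hba-a2, Hbb-b1, Hbb-b2, Hbb-bt and Hbb-bs, were at 0 in all 9 libraries, but near-identical copies share reads, so their counts are uncertain.

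Granulocyte and monocyte genes had 10 of 24 tested members positive (41.7%) and a median of -0.42, without a member that separated the groups. The median was -0.22 when PLT-HSC replicate 3 was left out, and -0.27, -0.20 and -0.22 without PEM-HSC replicates 2, 5 and 6. The abundant members were close: Lyz2, lysozyme, stood at 1011, 1464 and 1001 CPM and 883 to 1281 (median 1049) CPM, and Spi1, which encodes the myeloid factor PU.1, at 116, 108 and 147 CPM and 78.7 to 168 (median 120.2) CPM. Prtn3, proteinase 3, was at 357, 719 and 188 CPM and 235 to 667 (median 391) CPM. In all 3 genes the groups overlapped, and PLT-HSC replicate 2 was the highest of the 9 libraries for Lyz2 and Prtn3. Alas1, the housekeeping enzyme that starts haem synthesis, differed by -1.04 (95% interval -2.29 to 0.22), and Fcer1g, a signalling chain of Fc receptors, by -0.79 (95% interval -2.10 to 0.52). Cpa3, a protease of mast cells and basophils and of their progenitors, had no read in PLT-HSC and was at up to 16.3 CPM in 4 of 6 PEM-HSC libraries.

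Lymphoid genes, a lineage outside both the P and the PEM pattern, had 9 of 20 members positive (45%) and a median of -0.06. The receptor genes leaned low with 1 of 7 positive and the transcription factors high with 6 of 8 positive. Il2rg, the common cytokine receptor chain, was at 1359, 1788 and 371 CPM against 987 to 1779 (median 1336) CPM, with replicate 3 far below the other PLT-HSC libraries. Cd27, a receptor of the tumour necrosis factor family, showed the same, at 132, 137 and 36.7 CPM against 61.9 to 190.0 (median 148) CPM. Blnk below and Mef2c above, both described earlier, were the members that separated the groups, 1 of 20 (5%) in each direction beside 1.06% and 1.1% of all genes.

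Stem cell genes leaned higher in PLT-HSC by a small amount. Of 53 tested members of the stem cell identity list, 41 were positive (77.4%, beside 51.5% of all genes), with a median of 0.26 that stayed between 0.09 and 0.32 in 25 alternative settings. The lowest of these, with 29 members positive, had the mean of the mitosis genes as a covariate. The libraries overlapped in the level of the list, its mean log2(CPM + 1) relative to the 9 libraries. This level was 0.34, 0.03 and 0.05 in PLT-HSC replicates 1, 2 and 3 and -0.28 to 0.09 in PEM-HSC. Replicates 2 and 3 thus lay inside the PEM-HSC range. Ctnnal1, which encodes alpha-catulin and marks stem cells in reporter mice, was the 1 member with separated groups (1.89%, beside 1.1% of all genes), at 85.7, 57.1 and 100.4 CPM against 16.2 to 52.8 (median 31.2) CPM, a log2 fold change of 1.28 (SE 0.44, 95% interval 0.36 to 2.21). Txnip, an inhibitor of thioredoxin that restrains cycling, was at 973, 450.4 and 1057 CPM against 323 to 704 (median 419) CPM, with replicate 2 inside the PEM-HSC range. Gata2 (0.46, 95% interval -0.05 to 0.97) and Mecom (0.59, 95% interval -0.22 to 1.40), 2 factors needed for stem cell maintenance, had higher means in PLT-HSC with overlapping libraries. The surface genes Procr (0.11, 95% interval -0.57 to 0.80) and Cd34 (-0.29, 95% interval -1.47 to 0.88) and the factor gene Hlf (0.10, 95% interval -0.47 to 0.67) lay near zero or with wide intervals. Hoxa9, a homeobox gene of stem and progenitor cells, was at 107, 117 and 98.9 CPM against 10.1 to 108 (median 95.7) CPM, and PEM-HSC replicate 2 alone lay under 90 CPM.

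Genes known to be higher in aged stem cells showed a similar tilt. Of 50 tested members, 42 were positive (84%), with a median of 0.27. The level of the list was 0.49, 0.47 and -0.39 in PLT-HSC replicates 1, 2 and 3 and -0.62 to 0.44 in PEM-HSC, so that replicate 3 lay inside the PEM-HSC range. Nrg4, a growth factor of the epidermal growth factor family, stood at 202, 312 and 157 CPM in PLT-HSC against 16.0 to 132 (median 77.2) CPM in PEM-HSC, a log2 fold change of 1.56 (SE 0.58, 95% interval 0.32 to 2.79), and was the 1 member (2%, beside 1.1% of all genes) whose libraries did not overlap. Oxr1, an oxidation resistance gene, was at 1444, 1367 and 573 CPM against 391 to 895 (median 793) CPM, and Clu, clusterin, at 311, 602 and 178 CPM against 30.9 to 589.8 (median 115) CPM. Clu spanned more than a 10-fold range within PEM-HSC alone. Selp, P-selectin, overlapped (0.12, 95% interval -1.06 to 1.30) with PLT-HSC replicate 1 above the PEM-HSC range, and Jam2 (0.60, 95% interval -0.55 to 1.75) lay inside that range. The tilt of the list depended on one adjustment: with the mean of the mitosis genes as a covariate the median was -0.15 and 19 of 50 members were positive. It was 0.56 without PLT-HSC replicate 3 and 0.14 without replicate 2, and 0.47 without PEM-HSC replicate 5. Txnip and Slamf1 are among the members that the stem cell identity list shares.

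Retinoic acid genes, whose pathway maintains dormancy of stem cells, were measured by role. Of 5 tested genes of synthesis 4 were positive, and of 5 receptor genes 4. Of 2 genes of binding and uptake 0 were positive, with a median of -0.19, and the 1 gene of breakdown was at 0.13. Rdh10, which makes retinaldehyde, was at 186, 121 and 57.7 CPM against 9.10 to 88.6 (median 47.1) CPM, a log2 fold change of 1.32 (SE 0.65, 95% interval -0.05 to 2.69), with replicate 3 inside the PEM-HSC range. Aldh1a1, the next enzyme of the pathway, was at 184, 203 and 452 CPM against 137 to 272 (median 177) CPM, with replicate 3 the highest instead. Rarb, a receptor, was at 90.4, 92.6 and 33.0 CPM against 23.1 to 83.2 (median 49.5) CPM. No single PLT-HSC library was thus the highest across these genes, and without PLT-HSC replicate 2 the median of the 13 members, 0.39, became -0.08. It was 0.21 and 0.24 without PEM-HSC replicates 2 and 3.

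**Figure D2:**
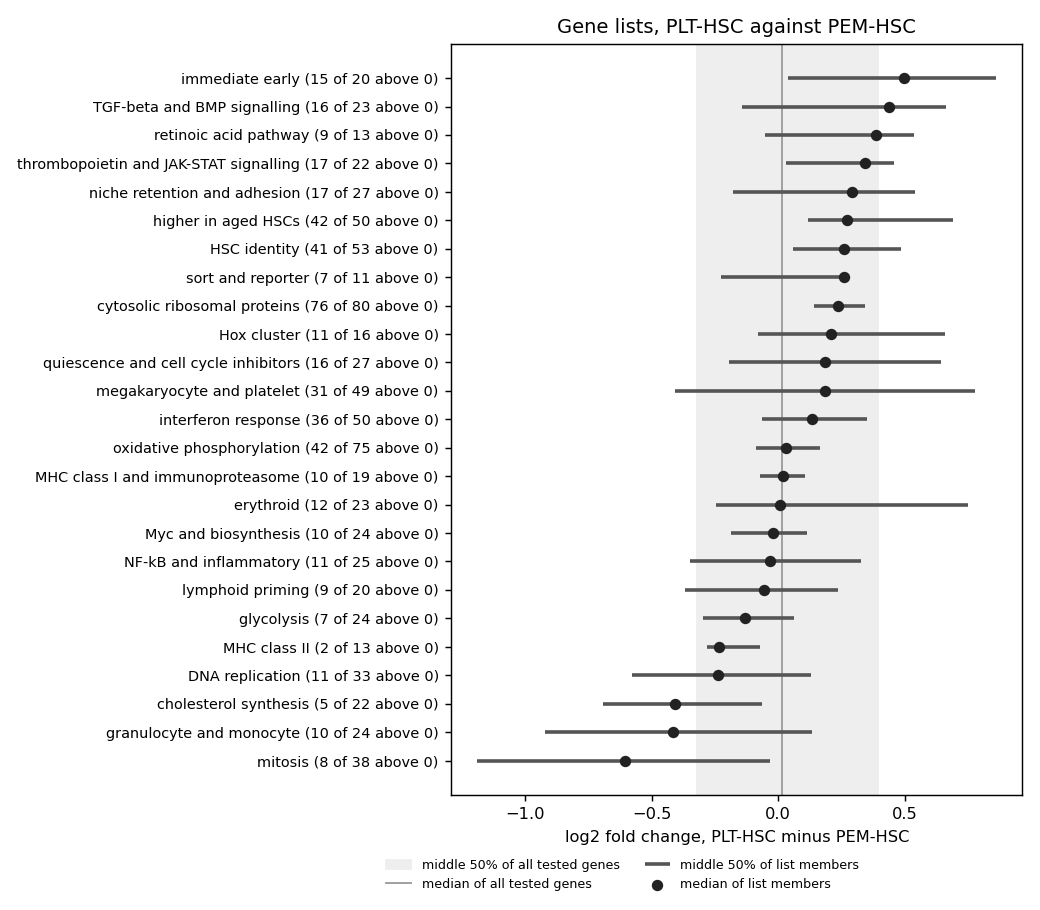
Median log2 fold change of PLT-HSC minus PEM-HSC for 25 gene lists (points) with the middle 50% of each list's tested members (bars), beside the median (line) and middle 50% (grey band) of all 12536 tested genes. Most medians lie inside the grey band. Mitosis, granulocyte and monocyte and cholesterol synthesis lie below it, and TGF-beta and BMP signalling and immediate early above it.

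Cell cycle genes divided the PLT-HSC libraries from each other more than from PEM-HSC. The summed level of 38 mitosis genes was 408.9 and 478.3 CPM in PLT-HSC replicates 1 and 2 and 2754 CPM in replicate 3, while PEM-HSC ran from 669.2 to 3504 CPM. Replicates 1 and 2 were below each PEM-HSC library and replicate 3 was above all but 1. The fold change was negative for 30 of 38 members, with a median of -0.60, which was -2.33 without PLT-HSC replicate 3, -0.05 without replicate 1, -0.19 without replicate 2 and -0.06 without PEM-HSC replicate 4. Ccnb2, a mitotic cyclin, was at 10.2, 37.6 and 261 CPM against 31.0 to 340.3 (median 211) CPM. Top2a, the topoisomerase of chromosome condensation, was at 3.07, 2.13 and 111 CPM against 6.98 to 68.8 (median 30.6) CPM, and Mki67, the proliferation marker, at 0.0345, 10.7 and 74.4 CPM against 13.2 to 47.5 (median 22.6) CPM. In each of the 3 genes replicate 3 alone carried most of the PLT-HSC signal. In libraries of 100 pooled cells, fewer cycling cells and less of these RNAs per cell cannot be told apart.

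DNA replication genes followed the same split. Of 33 members 22 were negative, with a median of -0.24 that was -1.36 without PLT-HSC replicate 3 and turned to 0.10 without replicate 1. It was -0.08 when PLT-HSC replicate 2 was left out, and -0.36, -0.37 and -0.14 without PEM-HSC replicates 1, 2 and 3. Pcna, the sliding clamp, was at 136, 151 and 326 CPM against 175 to 329 (median 253) CPM, and Rrm2, a subunit of ribonucleotide reductase, at 24.9, 25.2 and 101 CPM against 35.2 to 134 (median 72.1) CPM. Genes that restrain the cycle had 16 of 27 members positive and a median of 0.19. That median was 0.02 and 0.03 without PLT-HSC replicates 1 and 3, and 0.09 and 0.34 without PEM-HSC replicates 4 and 6. Among them Cdkn1c, which encodes the inhibitor p57 of dormant stem cells, was at 146, 129 and 49.6 CPM against 54.1 to 99.5 (median 87.8) CPM, so that the PLT-HSC library with the most mitotic RNA was the lowest of all 9 for Cdkn1c.

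Immediate early genes, induced within minutes by growth factors, stress and tissue handling, stood out in 1 library. Their summed level was 8397 CPM in PLT-HSC replicate 1, against 1165 and 2111 CPM in replicates 2 and 3 and 1700 to 4684 CPM in PEM-HSC. Fos, a subunit of AP-1, was at 1781, 78.0 and 468 CPM against 193 to 893 (median 457) CPM, Dusp1, a MAP kinase phosphatase, at 2401, 172 and 382 CPM against 338 to 1429 (median 616) CPM, and Egr1 at 538, 38.5 and 129 CPM against 66.3 to 232 (median 117) CPM. Replicate 1 was above each PEM-HSC library and replicate 2 below in all 3 genes. The median of the 20 tested members was 0.50 with 15 positive, and -0.64 without replicate 1, with 5 positive. It was 0.79 without replicate 2 and 0.75 without replicate 3. Klf6, a zinc finger factor of the same response, was at 431, 103 and 76.4 CPM against 38.8 to 101 (median 74.4) CPM, with replicates 1 and 2 above PEM-HSC and replicate 3 inside its range.

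**Figure D3:**
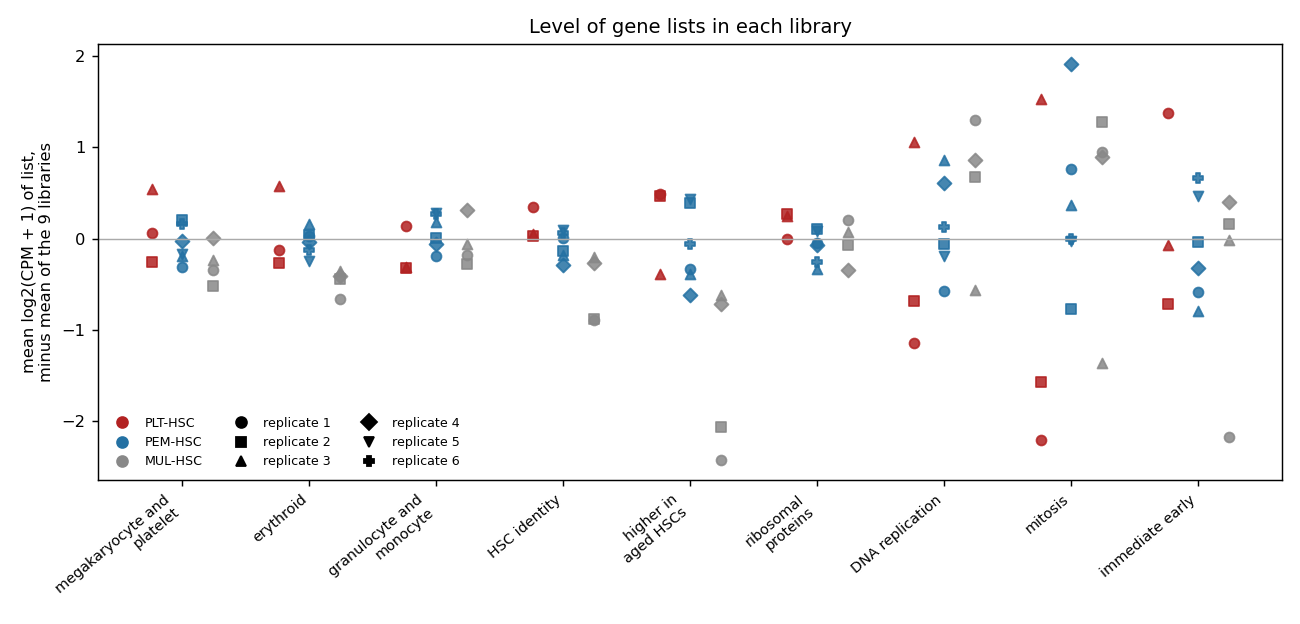
Level of 9 gene lists in each library, as the mean log2(CPM + 1) of the tested members minus the mean of the 9 PLT-HSC and PEM-HSC libraries, with groups by colour and replicate numbers by symbol. PLT-HSC replicate 3 lies at 1.53 for mitosis while replicates 1 and 2 lie at -2.21 and -1.57, and PLT-HSC replicate 1 lies at 1.38 for immediate early genes.

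Thrombopoietin signalling, which sustains both stem cells and megakaryocytes, had 17 of 22 members positive (77.3%) and a median of 0.34. Cish, a feedback inhibitor induced by STAT5, was the 1 member (4.55%, beside 1.1% of all genes) above in all libraries, at 91.4, 111 and 154 CPM in PLT-HSC against 31.0 to 84.1 (median 73.5) CPM in PEM-HSC, with a log2 fold change of 0.84 (SE 0.33, 95% interval 0.15 to 1.53). Socs2, another STAT5 target, was at 131, 297 and 197 CPM against 17.0 to 178 (median 162) CPM, and Sh2b3, the adaptor Lnk that dampens cytokine signals, at 11.4, 12.7 and 13.1 CPM against 0.0862 to 11.8 (median 3.30) CPM. Of the kinases, Jak1 was at 370.0, 295 and 506 CPM against 264 to 299 (median 279.9) CPM and Jak2 at 36.0, 71.9 and 166 CPM against 50.5 to 89.5 (median 63.3) CPM. The highest Jak1 and Jak2 values came from PLT-HSC replicate 3, without which the median of the list was -0.02. Leaving out PLT-HSC replicate 1 gave 0.07, and leaving out PEM-HSC replicate 1 gave 0.22.

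Genes of TGF-beta and BMP signalling, which holds stem cells in quiescence, had 16 of 23 members positive and a median of 0.44, or 0.10 without PLT-HSC replicate 3. Ltbp3, which stores latent TGF-beta, was at 21.0, 35.7 and 67.6 CPM against 4.71 to 31.3 (median 13.3) CPM. Eng, a co-receptor, was at 116, 51.3 and 185 CPM against 44.1 to 133 (median 62.2) CPM, and Smad2, a signal transducer, at 80.2, 77.3 and 74.0 CPM against 60.4 to 148 (median 118) CPM. Smad2 leaned low and was nearly constant in PLT-HSC, with PEM-HSC replicate 5 below it and the others above.

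Among 27 genes of niche retention and adhesion, 17 were positive, with a median of 0.29. It was 0.0036 and 0.05 without PLT-HSC replicates 1 and 3, and 0.09 and 0.13 without PEM-HSC replicates 2 and 5. Cxcr4 was the 1 member that separated the groups (3.7%, beside 1.1% of all genes). Cxcr4, the receptor for Cxcl12 that holds stem cells in the marrow, stood at 16.0, 27.6 and 25.9 CPM in PLT-HSC against 1.47 to 11.9 (median 5.24) CPM in PEM-HSC, a log2 fold change of 1.92 (SE 0.75, 95% interval 0.34 to 3.50). Each PLT-HSC library was above the highest PEM-HSC library, at a level under 30 CPM. Itga4, a chain of the integrin VLA-4, was at 62.4, 88.7 and 207 CPM against 52.4 to 114 (median 63.0) CPM, and Cd9 (-0.11, 95% interval -0.55 to 0.33) and Cd47 (-0.07, 95% interval -0.39 to 0.26) had intervals within a 2-fold difference either way. Vcam1, the ligand of VLA-4, had no read in PLT-HSC replicates 1 and 2 and 0.0308 CPM in replicate 3, and was detected in 5 of 6 PEM-HSC libraries at up to 18.4 CPM.

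Among the lists of 10 or more tested genes, ribosomal protein genes had the highest share of positive fold changes. Of 80 tested genes for proteins of the cytosolic ribosome, which translates all nuclear messages, 76 had a positive fold change (95%, beside 51.5% of all genes), yet the median was only 0.24. In 10 of them (12.5%, beside 1.1% of all genes) every PLT-HSC library was above every PEM-HSC library, and 8 had an unadjusted p under 0.05. Rps29 was at 181, 118 and 133 CPM against 75.1 to 114 (median 98.3) CPM, a log2 fold change of 0.60 (SE 0.23, 95% interval 0.12 to 1.09), and Rps20 at 276, 309 and 292 CPM against 154 to 265 (median 224) CPM, a difference of 0.47 (95% interval 0.05 to 0.90). Rps15a was at 128, 139 and 144 CPM against 71.0 to 118 (median 101) CPM, and Rpl37a at 117, 103 and 112 CPM against 61.2 to 98.2 (median 72.0) CPM. The others above in all libraries included Rps12, Rps13, Rps21, Rps26 and Rpl39. The most abundant members were level, Rpl4 at 0.05 (95% interval -0.29 to 0.38) and Rplp0 at -0.01 (95% interval -0.36 to 0.35).

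The count of separated genes depended on the scaling, and the size of the tilt on 1 library. With library sizes scaled by TMM, 6 of the 80 genes (7.5%, beside 1.21% of all genes) had separated libraries, namely Rpl37a, Rpl39, Rps12, Rps15a, Rps21 and Rps29. The median without PLT-HSC replicate 2 was 0.10, with 55 members positive, and it stayed above zero in all 25 alternative settings. The mean level of the list, relative to the 9 libraries, was -0.0024 in PLT-HSC replicate 1, 0.27 in replicate 2 and 0.25 in replicate 3, and -0.34 to 0.11 in PEM-HSC. Replicate 1 thus lay inside the PEM-HSC range on this scale, which is without TMM scaling. The TMM factors were 0.99, 0.91 and 1.10 in PLT-HSC replicates 1, 2 and 3 and 0.98 to 1.03 in PEM-HSC. Such scaling lowers the level of replicate 3 and raises that of replicate 2. Whether replicate 3 would stay above PEM-HSC with it was not tested. Ribosomal protein genes have many processed pseudogenes, so the counts depend on how shared reads were assigned, which was not given in the sources used here.

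**Figure D4:**
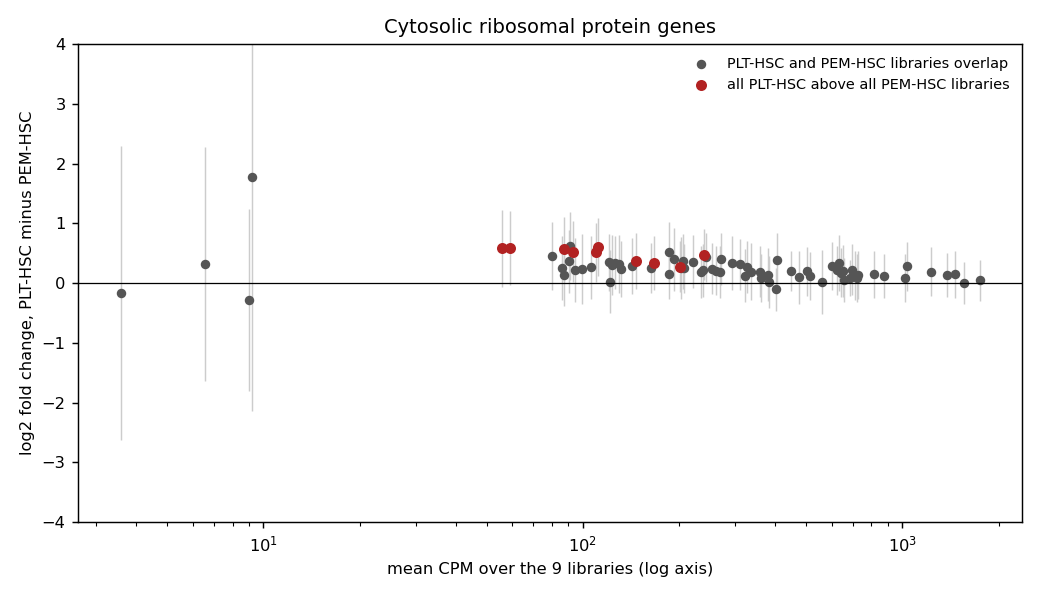
Log2 fold change of PLT-HSC minus PEM-HSC for 80 ribosomal protein genes against their mean CPM over the 9 libraries on a log axis, with 95% intervals, of which 1 runs past the axis. Red points mark the 10 genes in which all PLT-HSC libraries were above all PEM-HSC libraries. Of the 80 points 76 lie above 0.

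Ribosomal protein promoters are known to carry binding sites of ETS factors, whose core is GGAA. Of the 10 genes above in all libraries 7 had a promoter in the RefSeq table, and the 4 promoters shown are those that held an ETS motif, while the 3 without it are not shown. Each is the 150 bases before the start of the gene in RefSeq, build GRCm38.p6, read 5′ to 3′ on the strand of the gene, with the motif CGGAAG or its reverse complement CTTCCG in capitals.
Rpl37a, chr1:72711110-72711259, plus strand: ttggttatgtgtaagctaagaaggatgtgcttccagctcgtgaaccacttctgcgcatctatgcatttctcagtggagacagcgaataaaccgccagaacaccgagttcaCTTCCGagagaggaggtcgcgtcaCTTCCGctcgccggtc
Rps15a, chr7:118116148-118116297, minus strand: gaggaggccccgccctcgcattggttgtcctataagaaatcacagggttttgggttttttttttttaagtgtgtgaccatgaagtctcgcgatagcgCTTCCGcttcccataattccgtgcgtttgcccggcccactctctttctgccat
Rps12, chr10:23787210-23787359, minus strand: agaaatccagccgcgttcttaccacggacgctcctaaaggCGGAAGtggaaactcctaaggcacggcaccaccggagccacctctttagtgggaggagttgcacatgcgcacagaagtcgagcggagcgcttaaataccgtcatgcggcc
Rps21, chr2:180257229-180257378, plus strand: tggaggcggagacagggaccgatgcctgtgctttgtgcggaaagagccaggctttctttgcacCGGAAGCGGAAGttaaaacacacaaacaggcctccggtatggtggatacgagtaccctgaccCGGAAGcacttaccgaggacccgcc
The motif occurred 2 times before Rpl37a, 1 time before Rps15a and Rps12 and 3 times before Rps21. Of 59 ribosomal protein genes with a promoter in the table, 24 (40.7%) held it on either strand, against 2200 of 9427 tested genes (23.3%) and 3192 of all 27025 genes of the table (11.8%). The motif and the window were chosen after these sequences and several other motifs had been looked at, so the shares describe the promoters and test nothing.

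Oxidative phosphorylation had 42 of 75 members positive and a median of 0.03, with Uqcrc1, a core subunit of complex III, at 771, 734 and 792 CPM below each PEM-HSC library at 865 to 1144 (median 955) CPM. Cox6c, a subunit of complex IV, lay above in all libraries at 185, 169 and 192 CPM against 112 to 165 (median 138) CPM. In all, 2 of 75 members lay above (2.67%, beside 1.1% of all genes) and 1 below (1.33%, beside 1.06%). Glycolysis had 17 of 24 members negative and a median of -0.13, or -0.22 without PEM-HSC replicate 4 and -0.0033 without replicate 3, and Ldha, lactate dehydrogenase A, was at 1539, 1439 and 1599.6 CPM against 1358 to 2444 (median 1691) CPM. Cholesterol synthesis leaned low, with 17 of 22 members negative and a median of -0.41 that stayed between -0.58 and -0.30 over the alternatives. Ebp, a sterol isomerase, was at 53.4, 60.2 and 89.2 CPM against 82.4 to 121 (median 109.7) CPM, a log2 fold change of -0.66 (SE 0.25, 95% interval -1.19 to -0.14), with replicate 3 inside the PEM-HSC range. Msmo1, a sterol oxidase, was at 64.9, 281 and 92.9 CPM against 113 to 373 (median 227) CPM, with replicate 2 inside the PEM-HSC range and replicates 1 and 3 below it. Myc, which drives growth, was at 257, 139 and 312 CPM against 148 to 442 (median 351) CPM.

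Interferon response genes had 36 of 50 positive and a median of 0.13, which was -0.01, 0.08 and 0.39 without PLT-HSC replicates 1, 2 and 3 and 0.21 without PEM-HSC replicate 2. Ly6e, a surface protein induced by interferon, was at 2812, 5231 and 1906 CPM against 2245 to 3422 (median 2789) CPM, with replicate 2 the highest and replicate 3 the lowest of the 9 libraries. Oas2 and Zbp1, sensors of foreign nucleic acid, were the 2 members (4%, beside 1.1% of all genes) above in all libraries, Oas2 at 41.3, 32.7 and 27.6 CPM against 17.4 to 27.1 (median 23.3) CPM, and with library sizes scaled by TMM neither was. MHC class II genes had 11 of 13 members negative, with a median of -0.23. Cd74, the invariant chain, was at 2275, 3420.1 and 479 CPM against 1504 to 4263 (median 2375) CPM, so that PLT-HSC replicate 3 was the lowest of all 9, and without it the median of the list was -0.01. Leaving out PLT-HSC replicate 2 gave -0.53, and leaving out PEM-HSC replicate 1 gave -0.12. Inflammatory genes had 11 of 25 positive, with Nfkbia, the inhibitor of NF-kB, at 302, 311 and 276 CPM against 229 to 373 (median 315) CPM.

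Fold changes went with transcript length. When the 11942 tested genes with a known length were split into 5 classes of equal size by their longest transcript, the share with a positive fold change was 44.1% in the shortest class, 42%, 50% and 56.7% in the next 3 and 64.2% in the longest, with medians of -0.05, -0.08, 0.00, 0.09 and 0.22. Of the genes ranked first, the 10 higher in PLT-HSC had a median length of 5576 bases with 6 in the longest class, and the 9 lower ones with a length had a median of 1956 bases with 1 in the longest class. The libraries of PLT-HSC differed in this respect, as seen over the members of each class with a mean of at least 10 CPM. The level of the longest class minus that of the shortest was 0.34, -0.38 and 0.74 on the log2 scale in PLT-HSC replicates 1, 2 and 3. It was -0.23 to 0.10 in PEM-HSC. All 3 PLT-HSC libraries lay outside the PEM-HSC range, 2 above it and 1 below. Ribosomal protein genes, short as they are, went against the slope, since the shortest class without them had 42.6% positive. The split by length was made after the values had been seen, and its part in the ranking of genes was not tested.

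**Figure D5:**
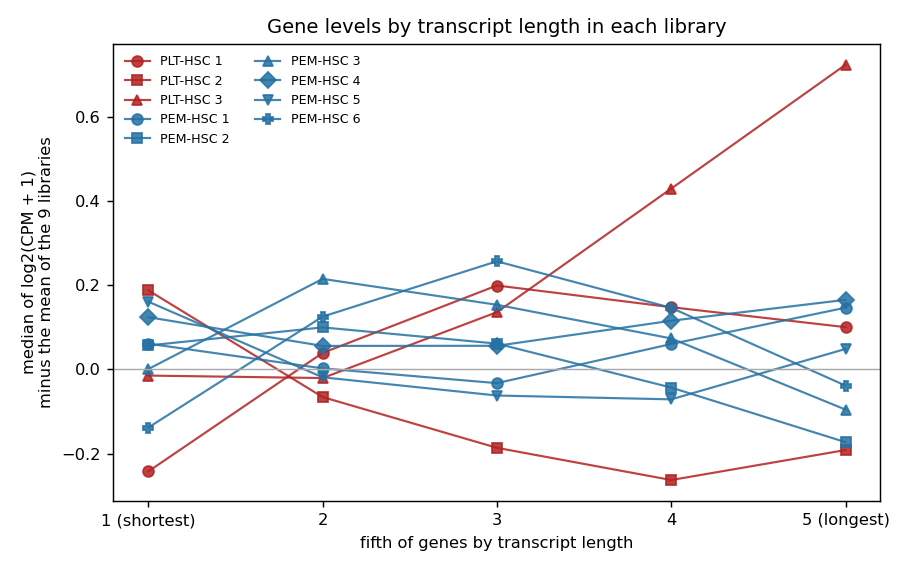
Median over genes of log2(CPM + 1) minus the mean of the 9 libraries, for 5 classes of genes by transcript length, with a line for each of 3 PLT-HSC (red) and 6 PEM-HSC (blue) libraries. Only genes with a mean of at least 10 CPM over the 9 libraries were used. PLT-HSC replicate 3 rises to 0.72 in the longest class and replicate 2 ends at -0.19, with all PEM-HSC libraries between -0.17 and 0.17 there.

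Markers of other cell types were looked at as whole lists. Macrophage markers summed to 135 to 314 CPM in PLT-HSC and 124 to 436 CPM in PEM-HSC over 15 genes, with Marco at 0 and Csf1r under 1 CPM in all 9 libraries. Endothelial markers summed to 158 to 261 CPM in PLT-HSC and 96.5 to 188 CPM in PEM-HSC over 12 genes, all 5 tested members had a positive fold change, and Cdh5 and Stab2 were at 0 in all 9 libraries. These members were Pecam1, Tie1, Tek, Emcn and Kdr, of which Tie1 and Tek also stand in the stem cell identity list, and their median of 0.61 was 0.08 without PLT-HSC replicate 3. Whether endothelial RNA has a part in any difference was not tested. T and NK cell markers summed to 176 to 405 and 114 to 387 CPM over 13 genes, with Cd3d, Cd3e, Cd3g, Cd4 and Cd8a among 9 genes at 0. B cell markers summed to 93.5 to 157 and 101 to 185 CPM over 12 genes, with Ms4a1 and Pax5 among those at 0. Neutrophil markers summed to 58.6 to 108 and 48.6 to 115 CPM over 12 genes, and late erythroid markers to at most 20.5 and 17.1 CPM. Mature megakaryocyte and platelet markers summed to 69.8 to 136 CPM in PLT-HSC and 98.4 to 225 CPM in PEM-HSC, with Gp6 at 0. Stromal markers summed to 16.8 to 62.2 and 7.37 to 38.5 CPM. The ranges of the groups overlapped for every one of the 8 lists.

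Some of the genes that separated PLT-HSC from PEM-HSC can be set beside MUL-HSC. Mean levels in PLT-HSC, PEM-HSC and MUL-HSC were 81.1 ± 22.02, 33.1 ± 12.6 and 10.5 ± 5.27 CPM for Ctnnal1 (SD, n = 3, 6 and 4). They were 382 ± 48.5, 247 ± 49.9 and 150.1 ± 26.7 CPM for Mef2c and 224 ± 79.4, 78.2 ± 41.3 and 15.2 ± 15.5 CPM for Nrg4. For Cxcr4 they were 23.2 ± 6.28, 6.16 ± 4.16 and 8.79 ± 0.674 CPM. PEM-HSC thus had the middle mean for Ctnnal1, Mef2c and Nrg4 and the lowest for Cxcr4. Over all 271 genes whose libraries did not overlap, the MUL-HSC mean lay between those of PLT-HSC and PEM-HSC in 66.4%. It lay beyond PEM-HSC in 29.9% and beyond PLT-HSC in 3.69%. Ctnnal1, Mef2c and Nrg4 thus show the less common pattern, beyond PEM-HSC, and Cxcr4 the most common one. Over all tested genes the shares were 29.5%, 43.3% and 27.2%, and genes picked for separated groups are not comparable with them. These 4 genes were picked for the comparison after their values had been seen.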

How the data were processed

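Per the submitters' processing notes, reads were handled with Trimmomatic, FastQC, STAR and featureCounts on the mouse build mm9. Versions, gene annotation and the strand setting are not given in the sources used here, so overlapping and antisense genes cannot be told apart. The authors deposited raw counts per gene, 24015 genes and 92 ERCC spike-in controls, without normalization. ERCC counts were left out of library sizes and tests. CPM is a count scaled to a library of 1000000 gene counts, without TMM scaling.

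Counts of all 13 libraries were fitted with edgeR 4.0.16 (R 4.3.3; TMM, filterByExpr, robust quasi-likelihood F test), 1 term per group, and PLT-HSC minus PEM-HSC was tested with Benjamini-Hochberg adjustment over 12536 genes at 0.05. The intervals cover 95%. Gene totals are given in the text, and each library comes from 100 cells. A group at 0 in all libraries was set to 3 counts over the group for the ratio given for Blnk. The genes named were, for each direction, the 10 with the lowest p among those with groups that did not overlap and a mean of at least 5 CPM over the 9 libraries, without gene models, and from each list preselected index genes and the 2 of highest level. Further genes were picked with their values in view. The comparison, the 34 gene lists and the rules were chosen with earlier results of these data known, and nothing here is independent of them. The marker genes Ahsp and Trac were not analysed here. Transcript lengths are the longest per symbol in GENCODE M21 basic, and promoters come from RefSeq on GRCm38.p6, a later build than that of the files, matched by symbol.

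Alternatives were DESeq2 1.42.0, limma 3.58.1 (voom), other scalings and filters, a fit on the 9 libraries alone, thinning to equal depth, covariates, a replicate block and leaving out each library. Non-overlap with TMM-scaled CPM was added after the data had been seen.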

Additional observations from a re-analysis of the deposited data

Results flagged for a closer look

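Within PEM-HSC, Cd69 stood at 61.8 CPM in replicate 4, far from the other libraries, of which the next was at 24.8 CPM. That library was the highest of the group with more Cd69, so leaving it out could not make the groups overlap. The level of the MHC class I and immunoproteasome genes was 0.33 in PEM-HSC replicate 3, as the mean log2(CPM + 1) relative to the 9 libraries, and 0.01 in the next library. The macrophage markers stood at 1.10 on the same scale in PEM-HSC replicate 3 and at 0.18 in the next library. That library held Cd68 at 239.8 CPM, C1qb at 29.4 CPM and Vcam1 at 18.4 CPM. These 3 results came from 53 checks for a library far from its group, and chance alone marks about 1 in 20.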

How the results depend on the processing

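The count of 0 genes called by edgeR became 115 with DESeq2 (17 higher and 98 lower in PLT-HSC, with 392 genes given no adjusted p) and 1 with limma voom. Of the 115, 31 had reads in both groups and 27 had groups that did not overlap. Leaving out 1 library at a time gave 0 to 2 called genes: Zfp456 (-9.65) without PLT-HSC replicate 1, and Tcf19 (-12.33) and Kcnq1ot1 (-10.26) without PLT-HSC replicate 3. The split of genes at an unadjusted p under 0.05, 198 higher and 269 lower, was 522 and 300 without a low-count filter and 461 and 268 with limma voom. With a replicate block, 0 genes were called and 336 in place of 467 had an unadjusted p under 0.05. Libraries of the same number did not deviate together (r across genes of -0.0517, 0.0597 and 0.0185), while pairs of different numbers ranged from -0.118 to 0.177. A correlation over all genes cannot decide whether equal numbers mark a shared recipient or day, and the labels do not say. With TMM-scaled CPM, an alternative chosen after seeing the data, 152 genes were above and 117 below in all libraries in place of 138 and 133, and 6 ribosomal protein genes in place of 10 were above. None of the 20 genes ranked first reversed in any alternative. They had been selected for libraries that do not overlap, which made a reversal unlikely from the start. Medians that turned sign without 1 PLT-HSC library, beside those given above, were those of the Hox cluster (0.21, or -0.15 without replicate 2), oxidative phosphorylation (0.03, or -0.08 without replicate 2), lymphoid priming (-0.06, or 0.02 without replicate 1), MHC class I (0.02, or -0.20 without replicate 2), Myc and biosynthesis (-0.02, or 0.10 without replicate 1), NF-kB and inflammation (-0.03, or 0.07 without replicate 3 and 0.0013 without replicate 2) and the sort and reporter genes (0.26, or -0.03 without replicate 2). The cause was not tested. With gene totals of at least 22913695 reads and 3 PLT-HSC libraries, the median 95% interval reached 0.90 on the log2 scale to either side for genes of at least 10 CPM, and which of depth, cell number and library number limits it was not tested. The share of mitochondrial reads was not run, since the table names no mitochondrial gene.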

Other observations

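Homeobox genes of the Hox cluster, which pattern the body axis and sustain self-renewal in stem cells, had 11 of 16 tested members positive and a median of 0.21. None separated the groups.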
